A study of Mus musculus with 6 samples.

Results

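The lysosome breaks down membrane and lipoprotein lipids and hands the products back to the cell. Phospholipases and acid lipase split glycerolipids and cholesteryl esters, a chain of hydrolases takes sphingolipids apart down to sphingosine, and small soluble activator proteins lift the lipid out of the membrane for the hydrolases. Cholesterol set free inside the lysosome is bound by NPC2 in the lumen and passed to NPC1 in the limiting membrane, and inherited loss of most of these proteins causes a lysosomal storage disease. Here 9 genes of this pathway, chosen by name and function among the 54532 genes listed, were followed in the liver after deletion of *Spns1*, the gene of a lysosomal lysolipid transporter. They were *Pla2g15* and *Lipa* (lipases), *Smpd1*, *Asah1* and *Galc* (sphingolipid hydrolases), *Psap* and *Gm2a* (activators), and *Npc1* and *Npc2* (cholesterol export). All 9 had enough reads to be tested.

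Liver RNA of 6 mice was sequenced, with 1 library for each of 3 controls and 3 g*Spns1*-cKO animals and 30350002 to 35295611 counts per library. According to the methods, g*Spns1*-cKO mice were *Spns1* fl/fl mice on a C57BL/6 background that carried Cre-ERT2 at Rosa26, and tamoxifen injected in the weeks after birth removed exon 3 of *Spns1* throughout the body. The controls of that cross were *Spns1* fl/fl littermates without Cre, whereas the sample labels give the genotype of the controls as WT and that of the others as SPNS1 KO. The sources used here give neither the sex nor the age of these 6 animals at collection, nor whether the controls received tamoxifen. Loss of *Spns1*, the presence of Cre and any difference in tamoxifen between the groups cannot be told apart in this design. *Spns1* itself had 35.9, 50.7 and 34.6 CPM (counts over the library size after scaling by edgeR's TMM method) in the controls, against 17.9, 30.6 and 17.8 in the g*Spns1*-cKO livers. All 3 g*Spns1*-cKO livers lay below the controls, with a log2 fold change of -0.87 (SE 0.25, edgeR adjusted p = 0.0300). The call was lost with library size only (-0.43, edgeR adjusted p = 0.213), with upper-quartile scaling (0.0635), and without control replicate 2 (0.0785), g*Spns1*-cKO replicate 1 (0.0910) or g*Spns1*-cKO replicate 3 (0.0830). Counts per gene include the exons that were not deleted.

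The 9 genes did not move as a block. With 15449 genes tested by edgeR (quasi-likelihood test) and a threshold of 0.05 on the Benjamini-Hochberg adjusted p, *Asah1* and *Npc2* rose, *Gm2a*, *Pla2g15* and *Smpd1* fell, and *Psap*, *Galc*, *Lipa* and *Npc1* did not pass. Thus 2 of 9 were higher, where 21.3% of all genes were, and 3 of 9 were lower, where 20.5% of all genes were. The called share of the 9 genes was near that of all genes, of which 41.8% passed. Their median log2 fold change was -0.12, beside 0.014 for all genes tested. The groups did not overlap in 7 of the 9 genes, beside 54.1% of all genes. In 3 of these genes the g*Spns1*-cKO livers lay above the controls (27.1% of all genes) and in 4 below them (26.9%). These directions are relative to TMM scaling, which puts the median of all genes near 0. When libraries were scaled by their totals only, the median of all genes moved to 0.46, 4 of the 9 genes were called higher and none lower, beside 47.2% and 6.28% of all genes.

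**Figure D1:**
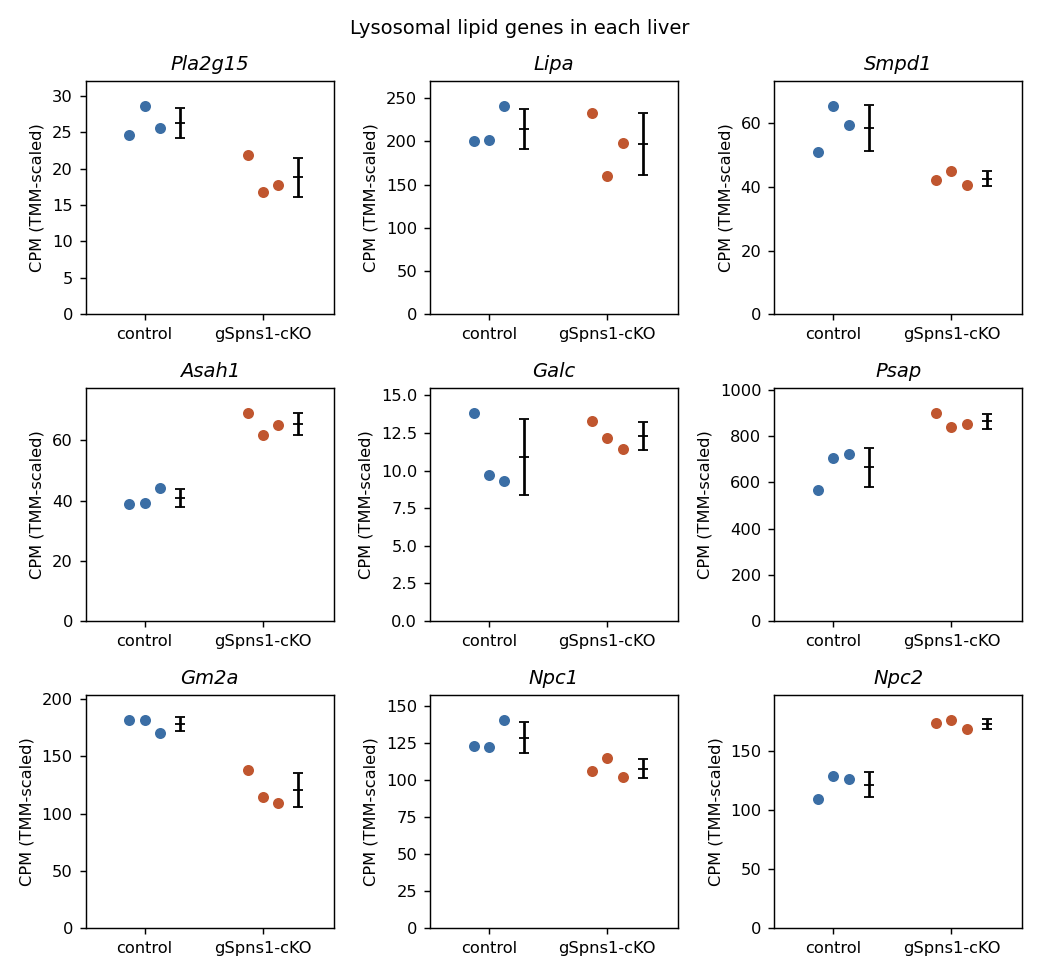
CPM (TMM-scaled, linear axis from 0) of each of the 9 genes in the 3 control livers (blue) and the 3 gSpns1-cKO livers (orange), with the mean and SD of each group as a black bar. The groups are separate for Asah1, Npc2 and Psap (higher in gSpns1-cKO) and for Gm2a, Pla2g15, Smpd1 and Npc1 (lower), and overlap for Lipa and Galc.

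Among the lipases, *Pla2g15* encodes the lysosomal phospholipase A2, which releases lysophospholipids from phospholipids. It lies on the plus strand of chromosome 8 of GRCm38 from 106150399 to 106164715 (ENSMUSG00000031903). It had 24.5, 28.6 and 25.6 CPM in the controls, against 21.9, 16.8 and 17.7 in the g*Spns1*-cKO livers. The lowest control liver was above the highest g*Spns1*-cKO liver. *Pla2g15* fell by 0.48 on the log2 scale (SE 0.13, edgeR adjusted p = 0.0132), and without g*Spns1*-cKO replicate 3 the adjusted p was 0.0582. *Lipa*, for lysosomal acid lipase, which hydrolyses cholesteryl esters and triglycerides, lies on the minus strand of chromosome 19 from 34492318 to 34527474 (ENSMUSG00000024781). It had 201, 201 and 241 CPM in the controls, against 232, 160 and 198 in the g*Spns1*-cKO livers. The groups overlapped, and the g*Spns1*-cKO livers of this gene spread more than those of the other 8 (196.8 ± 36.3 CPM, SD, n = 3). Its log2 fold change was -0.12 (SE 0.15, edgeR adjusted p = 0.554), and its sign changed without g*Spns1*-cKO replicate 2 (0.0074).

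Among the sphingolipid hydrolases, *Smpd1* and *Asah1* changed in opposite directions. *Smpd1* encodes acid sphingomyelinase, which turns sphingomyelin into ceramide, and lies on the plus strand of chromosome 7 from 105554360 to 105558389 (ENSMUSG00000037049). Its CPM were 51.0, 65.5 and 59.4 in the controls, against 42.2, 45.1 and 40.6 in the g*Spns1*-cKO livers. The highest g*Spns1*-cKO liver was below the lowest control, with a log2 fold change of -0.46 (SE 0.12, edgeR adjusted p = 0.00958). *Asah1* encodes acid ceramidase, which releases sphingosine from ceramide and so acts on the product of acid sphingomyelinase. It lies on the minus strand of chromosome 8 from 41340197 to 41374773 (ENSMUSG00000031591). *Asah1* had 38.8, 39.3 and 44.2 CPM in the controls, against 69.2, 61.9 and 65.1 in the g*Spns1*-cKO livers. The groups were well separated, and each had an SD of under 4 CPM around means of 40.7 and 65.4. *Asah1* rose by 0.68 on the log2 scale (SE 0.10, edgeR adjusted p = 0.000632), the largest change among the 9 genes under TMM scaling. *Galc*, for the hydrolase of galactosylceramide, is a gene of myelin-forming cells in particular and was the least abundant of the 9 per length. It lies on the minus strand of chromosome 12 from 98202294 to 98259459 (ENSMUSG00000021003), with 13.8, 9.68 and 9.29 CPM in the controls, against 13.3, 12.2 and 11.4 in the g*Spns1*-cKO livers. The control liver with replicate number 1 was the highest of all 6, so that the groups overlapped (log2 fold change 0.17, SE 0.17, edgeR adjusted p = 0.446).

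The activators also parted. *Psap* encodes prosaposin, the precursor of the saposins that assist ceramidase, galactosylceramidase and other hydrolases. It lies on the plus strand of chromosome 10 from 60277627 to 60302597 (ENSMUSG00000004207), and had 566, 703 and 723 CPM in the controls, against 899.8, 838 and 851 in the g*Spns1*-cKO livers. All g*Spns1*-cKO livers were above all control livers, while 1 control liver stood lower than the other two. The log2 fold change of *Psap* was 0.38 (SE 0.15, edgeR adjusted p = 0.0603). The same counts gave adjusted p = 0.0189 with DESeq2 and 0.0448 with limma-voom. In edgeR the adjusted p was 0.0165 with upper-quartile scaling, 0.000939 with library size only and 0.0404 with at least 10 counts in every library. *Psap* did not pass in the other 8 of 13 alternatives, so the call depends on the tool, the scaling and the filter. *Gm2a* encodes the GM2 activator, which presents ganglioside GM2 to hexosaminidase A, and lies on the plus strand of chromosome 11 from 55098115 to 55113029 (ENSMUSG00000000594). It had 182, 182 and 171 CPM in the controls, against 138, 114 and 110 in the g*Spns1*-cKO livers. *Gm2a* fell by 0.56 on the log2 scale (SE 0.12, edgeR adjusted p = 0.00449), with every g*Spns1*-cKO liver below every control liver.

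The 2 genes of cholesterol export differed in direction as well. *Npc2*, on the minus strand of chromosome 12 from 84754562 to 84773152 (ENSMUSG00000021242), encodes the soluble carrier of cholesterol. It had 109, 128 and 126 CPM in the controls, against 174, 176 and 168 in the g*Spns1*-cKO livers. *Npc2* rose by 0.51 on the log2 scale (SE 0.11, edgeR adjusted p = 0.00487), with little spread among the g*Spns1*-cKO livers (173 ± 4.13 CPM, SD, n = 3). *Npc1* (ENSMUSG00000024413), for the transporter of the limiting membrane, lies on chromosome 18. Its CPM were 123, 122 and 140 in the controls, against 106, 115 and 102 in the g*Spns1*-cKO livers. The groups did not overlap, but the log2 fold change of -0.26 (SE 0.11) did not pass (edgeR adjusted p = 0.0879). Of the exon bases of *Npc1*, 4.52% are shared with *Rmc1* on the opposite strand, a gene with fewer counts (means of 610 and 3830 over the 6 libraries). The sources used here do not say whether counting used strand.

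Scaling moved all 9 genes together and left their order unchanged, as the plot of differences under 3 scalings shows. A scaling factor per library shifts the log2 fold change of every gene by nearly the same amount. The unchanged order was thus fixed in advance and is no test of these results. With library totals only, the log2 fold changes were 1.13 for *Asah1*, 0.96 for *Npc2* and 0.82 for *Psap*, and these 3 and *Galc* (0.61) passed at an adjusted p under 0.05 (edgeR). *Gm2a* then had -0.12 (edgeR adjusted p = 0.420), *Pla2g15* -0.04 and *Smpd1* -0.016, and the signs of *Lipa* (0.32) and *Npc1* (0.19) turned. Set against the median of all genes under the same scaling, the difference was 0.67 for *Asah1*, 0.50 for *Npc2*, 0.36 to 0.37 for *Psap* and 0.15 to 0.16 for *Galc* over TMM, DESeq2, upper-quartile and library-size scaling. It was -0.58 for *Gm2a*, -0.50 for *Pla2g15*, -0.47 for *Smpd1*, -0.27 for *Npc1* and -0.14 to -0.13 for *Lipa*. The median also depends on the gene filter. With at least 1 count in any library the difference from it was 0.53 for *Asah1*, 0.016 for *Galc* and -0.72 for *Gm2a*. With at least 10 counts in every library these were 0.72, 0.20 and -0.53. The rises of *Asah1* and *Npc2* and the falls of *Gm2a*, *Pla2g15* and *Smpd1* are alike statements relative to the other genes of these livers.

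**Figure D2:**
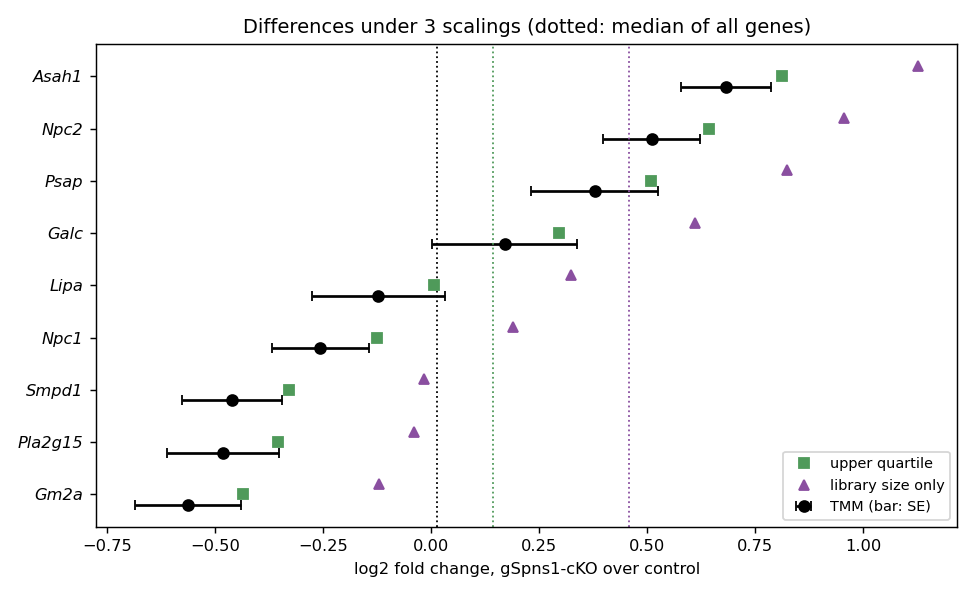
Log2 fold change of each gene, gSpns1-cKO over control, under TMM (black, with SE), upper-quartile (green) and library-size-only scaling (purple), and the median of all genes under each as a dotted line of the same color. All 9 genes shift to the right by nearly the same amount as the median of all genes, from 0.014 under TMM to 0.46 under library size only. A factor per library shifts all genes in this way.

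Ratios of a pair of genes within a library do not depend on the scaling, and 6 pairs of functional partners were compared this way. *Npc2*/*Npc1*, from counts per kilobase of gene length, was 1.75, 2.08 and 1.76 in the controls, against 3.23, 3.03 and 3.26 in the g*Spns1*-cKO livers. The ranges were far apart, and the log2 ratio was higher by 0.77 in g*Spns1*-cKO livers. *Smpd1*/*Asah1*, sphingomyelinase over ceramidase, was 1.34, 1.69 and 1.37 in the controls, against 0.619, 0.741 and 0.633 in the g*Spns1*-cKO livers. Thus *Smpd1* was above *Asah1* per length in each control liver and below it in each g*Spns1*-cKO liver, a log2 difference of -1.14. Each of these comparisons gave p = 0.1 in a two-sided exact permutation test, the smallest p that 3 mice against 3 allow, or 0.15 adjusted over the 6 pairs.

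The other 4 pairs moved less. *Psap*/*Asah1* was 20.1 ± 2.04 in control and 16.3 ± 0.361 in the g*Spns1*-cKO group (SD, n = 3), and *Pla2g15*/*Lipa* was 0.122 ± 0.0176 and 0.0948 ± 0.00798, both without overlap (two-sided exact permutation p = 0.1, adjusted p = 0.15). *Lipa*/*Npc1* and *Psap*/*Galc* overlapped between the groups, with log2 differences of 0.12 and 0.19 (exact permutation p = 0.6 and 0.9).

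**Figure D3:**
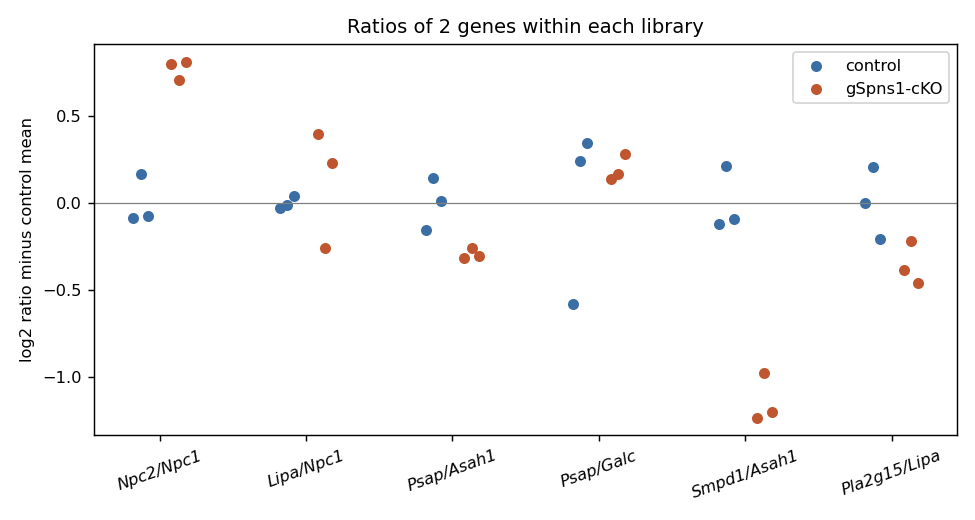
Log2 ratio of 2 genes' counts per kilobase in each library, with the mean of the 3 control livers (blue) set to 0 and the gSpns1-cKO livers in orange. The gSpns1-cKO livers lie apart from the controls for 4 of the 6 pairs, above for Npc2/Npc1 and below for Psap/Asah1, Smpd1/Asah1 and Pla2g15/Lipa.

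Levels as CPM per kilobase use the deposited gene length, which for *Galc* equals all of its annotated exon bases (14879). For *Npc1* the deposited length is 10725, against 11317 annotated exon bases. Lengths of the transcripts expressed in these livers were not measured, so the order of genes and their shares hold for these lengths only. Compared per length in this way, *Psap* was the most abundant of the 9 genes in every liver. Its level was 242 ± 31.1 in control and 314 ± 11.9 in the g*Spns1*-cKO group (SD, n = 3), followed by *Lipa* with 72.2 ± 7.73 and 66.3 ± 12.2. Of the summed level of the 9 genes, *Psap* made up 53.6% to 57.6% in control livers and 62.7% to 65.2% in g*Spns1*-cKO livers. This share is free of scaling but not of the gene lengths used. In control livers the order went on with *Gm2a*, *Npc2*, *Smpd1*, *Asah1*, *Npc1*, *Pla2g15* and *Galc*, and of these neighbours only *Asah1* and *Npc1* overlapped. In g*Spns1*-cKO livers *Npc2* (31.7 ± 0.760) stood at the level of *Gm2a* (29.2 ± 3.69), whose ranges overlapped, and *Asah1* (19.3 ± 1.08) stood above *Smpd1* (12.8 ± 0.694). *Galc* was last in both groups, with 0.735 ± 0.170 and 0.827 ± 0.0641. The share of *Gm2a* went from 8.96% to 11.4% in control livers to between 5.52% and 6.40% in g*Spns1*-cKO livers.

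Other genes listed for lipid degradation in the lysosome were mostly higher. The list also holds relatives by family, *Smpdl3a*, *Smpdl3b*, *Pld3* and *Pld4*, and these were among the genes that rose. Of 16 tested, 10 rose, *Ppt2* fell (log2 fold change -0.52, SE 0.11, edgeR adjusted p = 0.00476) and 5 did not pass, with a median log2 fold change of 0.51, where 21.3% of all genes rose and 20.5% fell. Without control replicate 1, 7 were called higher, beside 18.2% of all genes. *Hexa*, for a subunit of hexosaminidase A, rose by 1.11 on the log2 scale (SE 0.12, edgeR adjusted p = 0.000103), from 80.2 ± 6.88 to 173 ± 18.5 CPM (SD, n = 3), while the activator gene *Gm2a* fell. *Smpdl3b*, a membrane-bound relative of *Smpd1*, rose by 1.36 (SE 0.37, edgeR adjusted p = 0.0143) from 0.797 ± 0.390 to 2.06 ± 0.0780 CPM (SD, n = 3). *Pld4*, of the phospholipase D family, rose by 1.07 (SE 0.23, edgeR adjusted p = 0.00497), from 4.91 ± 1.53 to 10.3 ± 1.83 CPM.

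Genes of the lysosomal membrane and of lipid transfer were mixed, with 3 of 12 higher, 3 lower and 6 not past the threshold, shares near the 21.3% and 20.5% of all genes. *Scarb2*, for LIMP2, a membrane protein that also carries cholesterol, fell from 271 ± 27.5 to 177 ± 13.7 CPM (log2 fold change -0.61, SE 0.13, edgeR adjusted p = 0.00369), in the opposite direction to *Npc2*. *Gpr155*, for a cholesterol sensor of the lysosomal membrane, fell by 1.31 (SE 0.14, edgeR adjusted p = 8.57e-05), and *Stard3nl*, for a late endosomal membrane protein, rose by 0.53 (SE 0.15, edgeR adjusted p = 0.0179). The 3 higher calls of this group were lost without control replicate 3 or without g*Spns1*-cKO replicate 3, and 1 was left without control replicate 2.

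Counterparts outside the lysosome, enzymes that act on related lipids and the sterol transporter gene *Npc1l1*, went both ways. Of these 12 genes, 10 could be tested, of which 2 rose (21.3% of all genes did) and 4 fell (20.5%). *Lcat*, the secreted relative of *Pla2g15* that esterifies plasma cholesterol, fell from 572 ± 100.5 to 265 ± 41.2 CPM (SD, n = 3, log2 fold change -1.11, SE 0.17, edgeR adjusted p = 0.000776). *Lipe*, for hormone-sensitive lipase, fell by 1.85 (SE 0.18, edgeR adjusted p = 6.1e-05), and *Smpd3*, for a neutral sphingomyelinase, rose by 1.70 (SE 0.26, edgeR adjusted p = 0.00079), opposite to *Smpd1*. *Smpd3* shares 4.72% of its exon bases with *Prmt7* on the opposite strand. *Acer1* had no count in any library, and *Npc1l1* had none in the controls, against 2, 0 and 4 in the g*Spns1*-cKO livers.

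**Figure D4:**
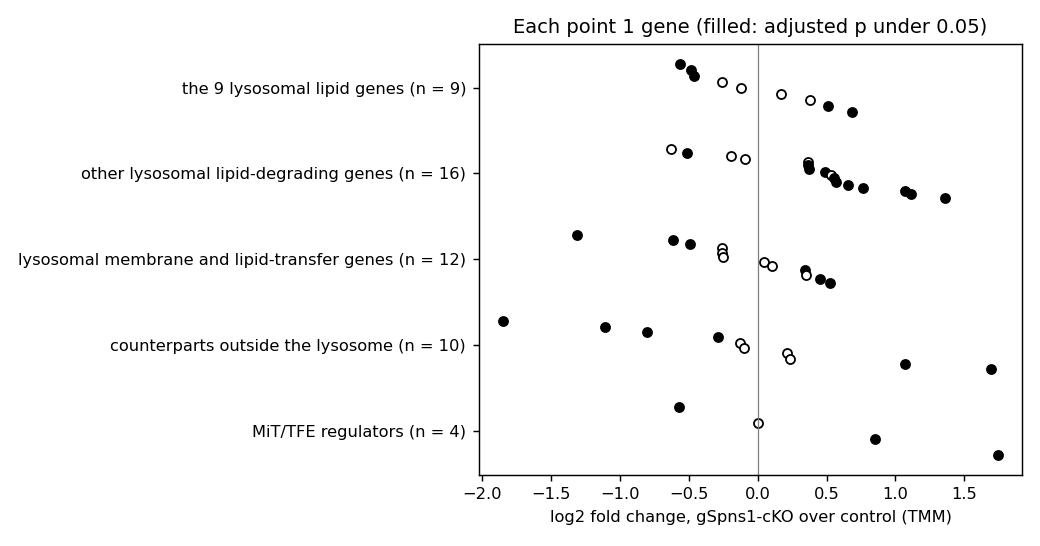
Log2 fold change (TMM) of every tested gene of the 9 lysosomal lipid genes and of the 4 other groups, filled where the adjusted p was under 0.05 in edgeR's test. Of the other lipid-degrading genes 10 of 16 are filled to the right of 0, whereas the 9 genes have 2 filled points on the right and 3 on the left.

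Transcription factors of the MiT/TFE family bind an E-box element in the promoters of many lysosomal genes. *Tfeb* fell by 0.57 on the log2 scale (SE 0.15, edgeR adjusted p = 0.0136), *Mitf* rose by 0.85 (SE 0.22, edgeR adjusted p = 0.0121) and *Tfec* by 1.74 (SE 0.32, edgeR adjusted p = 0.00176), while *Tfe3* had a log2 fold change of 0.0031 (SE 0.12, edgeR adjusted p = 0.987). The CPM of *Tfe3* were 27.3 ± 2.82 in control and 27.4 ± 2.05 in the g*Spns1*-cKO group (SD, n = 3). The letters CACGTG, which read the same on both strands, were looked for in RefSeq promoters (GRCm38.p6, from 250 bases before to 50 after the start) of *Pla2g15*, *Lipa*, *Smpd1*, *Galc*, *Psap*, *Gm2a* and *Npc2*. None of these 7 genes held them, where 8.09% of all 27025 genes with a promoter did. This says only that the letters are not in these windows.

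The libraries also differed in the markers of the cells that the liver holds, and in bulk tissue fewer cells of a type and less RNA per cell cannot be told apart. Hepatocyte markers summed to 112000 to 126000 CPM in control livers and 66000 to 74900 in g*Spns1*-cKO livers, with 6 of 8 lower, while *Cps1* did not pass and lay above the controls in every g*Spns1*-cKO liver. Macrophage markers summed to 203 to 344 and 743 to 1030 CPM, with 9 of 10 higher, and Kupffer cell markers to 134 to 231 and 449 to 695 CPM, with 5 of 6 higher. Of these, *Adgre1* went from 5.09 to 22.4 CPM, *Clec4f* from 76.0 to 168 and *Gpnmb*, of lipid-associated macrophages, from 0.589 to 70.4. *Alb* was at 69350 and 41890 CPM, so both groups were liver by their markers. Of the lists of lipid-associated macrophages, neutrophils, endothelium, stellate cells and fibroblasts, and cholangiocytes, 6 of 7, 3 of 3, 5 of 6, 5 of 7 and 6 of 6 tested genes were higher and none lower, and 3 further neutrophil genes had too few counts to be tested. Lymphocyte markers had 1 of 8 higher and 1 lower, and erythroid markers 2 of 5 and 1 (edgeR, adjusted p under 0.05 throughout). Beside all these lists, 21.3% of all genes tested were higher and 20.5% lower. *Spp1* is in the lists of both lipid-associated macrophages and cholangiocytes. No marker was at 0 in all libraries of a group apart from *Ly6g*, in g*Spns1*-cKO livers. *Asah1*, *Npc2* and *Psap* (which did not pass) were higher, and *Gm2a*, *Pla2g15* and *Smpd1* lower, in livers with higher macrophage and lower hepatocyte markers. Any gene that differs between the groups goes along with every marker list that differs, so this match says nothing about cell type. The part of cell composition in these differences was not tested.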

How the data were processed

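RNA-Seq libraries of 6 mouse livers were grouped by the titles of the samples. Per the labels, the reads were processed by the sequencing service with fastp, HISAT2 2.0.5 and featureCounts 1.5.0-p3 on mm10, and the authors deposited whole-number counts per gene, not normalized and not pooled. The deposited table also gives gene lengths in bases, used for levels per kilobase. Its FPKM values and the columns of the authors' own comparison (group means, fold changes, p-values) were not used. Of 54532 listed genes, 54409 were found in GENCODE M21 (GRCm38), 98.3% of them at the same coordinates.

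The tests used edgeR 4.0.16 in R 4.3.3 (filterByExpr by genotype, TMM, robust glmQLFit, quasi-likelihood test, Benjamini-Hochberg adjustment over 15449 genes). The TMM factors were 0.834 to 0.873 in control and 1.16 to 1.18 in g*Spns1*-cKO libraries. The SE is the size of the log2 fold change over the square root of F. CPM use the TMM-scaled library size. Replicates differed by more than sampling noise (chi-square per gene of 40.1 to 121), and p-values rest on the spread between 3 mice per group. On simulated counts the test recovered 61 of 98 genes changed by 1 and 88 of 95 changed by 2 on the log2 scale, among 15123 genes. It also made 12 false calls. The simulation changed 200 genes in directions drawn at random and gave all other genes the same mean in both groups. In the data 41.8% of genes were called and the TMM factors differed between the groups, so these rates need not hold there. No change smaller than 1 was simulated, so recovery at the sizes seen in the 9 genes under TMM is not known. The 9 genes and the lists were chosen by function with earlier results of these data known. From each other list the 3 most changed genes past the threshold are named, with *Spns1*, partners of the 9 genes, the 4 MiT/TFE genes and single marker genes. *Ppt2*, *Cps1*, *Ly6g*, *Acer1* and *Npc1l1* were named after their values were seen. Alternatives were DESeq2 1.42.0, limma-voom (limma 3.58.1), library size only, upper-quartile scaling, filters of at least 1 count in any or 10 in every library, a replicate block and leaving out each library. A gene of the lists and a ratio that needs it are not reported here.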

Additional observations from a re-analysis of the deposited data

How the results depend on the processing

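Among the 13 alternatives, scaling by library size only called 4 of the 9 genes higher and 0 lower. It called 0 of the other lysosomal lipid-degrading genes and 0 of the MiT/TFE genes lower. Of the membrane and lipid-transfer genes it called 6 higher and 1 lower, and of the counterparts outside the lysosome 5 and 2. DESeq2, limma-voom, upper-quartile scaling and the filter of 10 counts in every library each called 3 of the 9 genes higher, the added gene being *Psap*. Of all genes tested they called 21.5%, 21.1%, 26.6% and 21.8% higher. Library size only also called 7289 of all genes higher (47.2%) and 970 lower (6.28%), beside 3286 (21.3%) and 3166 (20.5%) with TMM. Upper-quartile scaling called 4111 (26.6%) and 2240 (14.5%). The sign of *Lipa* turned with library size only (0.32), upper-quartile scaling (0.0065) and without g*Spns1*-cKO replicate 2 (0.0074), and that of *Npc1* with library size only (0.19). Leaving out 1 library at a time gave *Lipa* log2 fold changes of -0.26 to 0.0074. *Asah1* and *Npc2* stayed past the threshold under all 13.

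With each library left out in turn, 4490 to 6429 genes were called, 2 of the 9 genes were higher each time and between 2 and 3 lower. Of all genes tested in these fits, 15% to 20.2% were higher and 13.5% to 20.3% lower. The other lipid-degrading genes had 7 to 9 higher and 1 to 2 lower, the membrane genes 0 to 3 and 2 to 3, the counterparts 2 to 3 and 3, and the MiT/TFE genes 1 to 2 and 0 to 1. The log2 difference of *Lipa*/*Npc1* ranged from -0.016 to 0.31 and that of *Psap*/*Galc* from -0.098 to 0.37, both turning sign, and those of the other 4 pairs kept theirs. The causes were not tested, and the smaller number of samples cannot be told apart from the library left out.

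Across all genes tested, no pairing by the replicate numbers of the labels was seen. Deviations of same-numbered livers correlated across genes at 0.042, 0.032 and -0.027, beside -0.081 to 0.056 for livers of different numbers. With so few livers this cannot exclude a pairing. *Spns1* was highest in replicate 2 of both groups (50.7 and 30.6 CPM). With a replicate block its log2 fold change was -0.90 (edgeR adjusted p = 0.000679, against 0.0300 without the block). The replicate block called 6100 genes, with 2 of the 9 genes higher and 3 lower, beside 20% and 19.5% of all genes.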
